A study of Mus musculus with 20 samples.

Results

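The cytochrome P450 family of mouse lung is described here in 20 whole-lung RNA-seq libraries. Members were chosen by gene symbol, Cyp followed by a digit, without symbols ending in -ps, and 101 of the 24054 genes in the expression table met that rule. Of these, 74 had 10 or more counts summed over all libraries and are the members described, 14 had fewer and 13 had none. The pseudogene Cyp4b1-ps2 stays in by the letter of the rule, and its reads can be shared with Cyp4b1. The study set mice labelled Alox15 knockout against wild-type mice, each given house dust mite extract (HDM) or saline, with 5 libraries labelled as biological replicates in each group. The sources used here give all mice as female and of the C57Bl6 strain, and they do not give the ages. HDM mice labelled knockout (KO_HDM) and HDM wild-type mice (WT_HDM) received the extract through the nose every day for 14 days. The saline groups (KO_saline and WT_saline) carry the label saline, or PBS in their titles, with no schedule. The labels do not say how the Alox15 allele was made.

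Cytochrome P450 enzymes are haem proteins of the endoplasmic reticulum or mitochondria that insert oxygen into lipids, steroids, vitamins and foreign chemicals, with electrons from partner reductases. Most forms that clear drugs are made in hepatocytes, whereas the mouse airway has its own set, made largely by club cells, the secretory cells of the bronchiolar lining. Other members build or break down sterols, bile acids, vitamin D, retinoic acid and signalling lipids derived from arachidonic acid.

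Total counts per library were between 12573113 and 23305673. The lung markers Sftpc and Scgb1a1 were present in every library, with lowest levels of 3973 and 3728 CPM, that is, counts scaled to a common library size. Alox15 itself had 41.1 ± 4.07 CPM (SD, n = 5) in KO_HDM and 40.8 ± 2.45 CPM (SD, n = 5) in KO_saline. It had 18.6 ± 8.53 CPM (SD, n = 5) in WT_HDM and 4.58 ± 4.002 CPM (SD, n = 5) in WT_saline, so its counts went against the genotype label and the libraries are called "labelled knockout" throughout. The ribosomal transcript Rn45s took 1.21% to 6.08% of counts. The adipocyte gene Adipoq was above 50 CPM in 5 libraries, KO_HDM 5, WT_HDM 2, WT_HDM 4, WT_saline 2 and WT_saline 4. Markers of hepatocytes stood apart in all KO_HDM libraries, with values given beside the liver forms. Differences were tested with edgeR's quasi-likelihood test over 16193 genes, and a gene is said to have risen or fallen where the Benjamini-Hochberg adjusted p over all of them was under 0.05. Of the 74 members, 38 had enough counts for that test and 36 did not, and those that passed include genes that passed through 1 group alone.

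Sequences just before the transcription start are shown for 3 members, an airway form, a form switched on through the aryl hydrocarbon receptor and a liver form. These kinds were known beforehand and are not read from the sequences. Each sequence is the 250 bases upstream of the start of the RefSeq transcript in GRCm38.p6, 5′ to 3′ on the gene's own strand. Capitals mark any match, on either strand, to GCGTG (the core bound by the aryl hydrocarbon receptor), CAAAGTCCA (a core site of the liver regulator HNF4), GTTAATNAT (an HNF1 site without its last bases), ATCACCCCA (a sterol response element without its last base), TATAAA or CCAAT. Capitals would also cover any overlap between these motifs.
Cyp2f2, plus strand, chr7:27119705-27119954: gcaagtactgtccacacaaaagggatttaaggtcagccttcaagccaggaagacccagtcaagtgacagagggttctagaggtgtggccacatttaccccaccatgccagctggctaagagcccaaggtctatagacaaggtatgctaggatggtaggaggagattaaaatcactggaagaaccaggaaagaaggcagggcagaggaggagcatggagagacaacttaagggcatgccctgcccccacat
Cyp1a1, plus strand, chr9:57697363-57697612: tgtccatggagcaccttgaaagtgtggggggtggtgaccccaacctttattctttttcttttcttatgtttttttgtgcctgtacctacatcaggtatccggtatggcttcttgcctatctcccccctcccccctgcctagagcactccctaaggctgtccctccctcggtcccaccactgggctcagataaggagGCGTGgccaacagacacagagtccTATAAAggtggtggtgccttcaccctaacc
Cyp3a11, minus strand, chr5:145879855-145880104: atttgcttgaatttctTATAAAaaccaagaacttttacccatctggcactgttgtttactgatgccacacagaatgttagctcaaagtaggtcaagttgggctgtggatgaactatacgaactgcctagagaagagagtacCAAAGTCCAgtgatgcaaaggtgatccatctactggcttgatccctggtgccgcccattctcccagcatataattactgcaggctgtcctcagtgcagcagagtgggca
None of these motifs was found in the Cyp2f2 window. The Cyp1a1 window holds GCGTG and TATAAA, and the Cyp3a11 window holds TATAAA and CAAAGTCCA.

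Promoters were found for 57 of the 74 members, 64 promoters in all, and a member counts where any of its promoters holds the motif. Shares over the table are per promoter. GCGTG was in 14 of the 57 and in 28.2% of all 32851 promoters of the table, CCAAT in 26 and 33.8%, and TATAAA in 18 and 12.4%. CAAAGTCCA was in 5 of the 57 and in 0.384% of all promoters, GTTAATNAT in 2 and 0.737%, and ATCACCCCA in none and 0.24%. The stretches around CAAAGTCCA are shown because 4 of the 5 genes, all but Cyp8b1, had counts in KO_HDM and none in any other library. Capitals mark CAAAGTCCA alone in these stretches, and in Cyp2c68 a CCAAT that overlaps it is left in lower case.
Cyp3a11, minus strand, chr5:145879929-145879989: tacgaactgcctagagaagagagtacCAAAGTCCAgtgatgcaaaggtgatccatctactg
Cyp2c67, minus strand, chr19:39649133-39649193: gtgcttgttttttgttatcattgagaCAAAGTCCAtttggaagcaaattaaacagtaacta
Cyp2c68, minus strand, chr19:39741144-39741204: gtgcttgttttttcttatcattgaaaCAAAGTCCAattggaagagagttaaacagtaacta
Cyp2c70, minus strand, chr19:40187316-40187376: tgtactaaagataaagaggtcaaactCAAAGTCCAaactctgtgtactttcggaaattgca
Cyp8b1, minus strand, chr9:121916338-121916398: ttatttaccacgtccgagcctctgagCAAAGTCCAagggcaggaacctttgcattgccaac
The site lies 64 to 125 bases before the start in these 5 genes. Of the 7 genes with counts in KO_HDM alone that have a promoter in the table, 4 hold it, as does 1 of the other 50. Those 7 genes reached the minimum of summed counts through KO_HDM alone, so their set is partly fixed by that minimum. The Cyp2c67 and Cyp2c68 stretches are nearly the same sequence, so the 4 genes are not independent cases. The contrast with the other 50 therefore supports nothing further. The motif was chosen with the liver result known, and a match of letters is a description of the sequence only.

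No tested airway form rose after HDM, and Cyp2f2, Cyp4b1, Cyp2b10 and Cyp2s1 fell under both labels. Among the 8 tested airway and other extrahepatic xenobiotic forms, 5 fell and none rose in KO_HDM against KO_saline, with a median log2 fold change of -1.36, and 4 fell and none rose in WT_HDM against WT_saline, with a median of -0.73. Over the whole family, 23 of 38 tested members changed in KO_HDM, 16 lower and 7 higher, where 51.9% of all tested genes changed, 25.7% lower and 26.2% higher. The 7 include Cyp3a11 and Cyp2j5, which passed the count filter through KO_HDM alone. In WT_HDM 15 of 38 changed, 11 lower and 4 higher, where 30.1% of all tested genes changed, 16.5% lower and 13.6% higher. The median log2 fold change over the 38 was -0.42 in KO_HDM, against 0.02 over all genes, and -0.41 in WT_HDM, against -0.02 over all genes. In whole-lung RNA, fewer cells of a type and less RNA per cell cannot be told apart.

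Cyp2f2, the club cell enzyme that activates naphthalene in mouse airways, was the member with the most counts. It had 798, 560.5, 505, 379.7 and 443 CPM in KO_HDM, against 2415, 3462, 3270, 2602 and 2489 CPM in KO_saline. WT_HDM libraries had 490.4, 386, 512, 563 and 837 CPM, against 1591, 2816, 1990, 2404 and 2760 CPM in WT_saline. Every HDM library lay below every saline library of both labels, and the KO_HDM and WT_HDM values overlapped. The group means were 537 ± 161 CPM (SD, n = 5) in KO_HDM, 2848 ± 483 CPM (SD, n = 5) in KO_saline, 558 ± 169 CPM (SD, n = 5) in WT_HDM and 2312 ± 521 CPM (SD, n = 5) in WT_saline. The log2 fold change of Cyp2f2 was -2.41 ± 0.23 (SE, adjusted p = 1.47e-07) in KO_HDM and -2.05 ± 0.23 (adjusted p = 3.07e-06) in WT_HDM. Its share of all counts of the 74 members was 31.4% to 49.9% in KO_HDM, 61.9% to 66.5% in KO_saline, 32.3% to 43.6% in WT_HDM and 56.3% to 66.1% in WT_saline. Without Cyp2f2, the other 73 members together had 728 to 969 CPM in KO_HDM, 1430 to 1857 CPM in KO_saline, 780.3 to 1082 CPM in WT_HDM and 1233 to 1565 CPM in WT_saline.

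The club cell markers moved with Cyp2f2. All 8 of 8 fell in both HDM groups, where 25.7% of all tested genes fell in KO_HDM and 16.5% in WT_HDM. None of the 8 markers was at 0 in any group. Their summed level was 4187 to 8436 CPM in KO_HDM, 17740 to 26300 CPM in KO_saline, 4584 to 9318 CPM in WT_HDM and 14840 to 20150 CPM in WT_saline. Cyp2f2 as a percentage of Scgb1a1, the main club cell secretory protein gene, was 8.16% to 11.9% in KO_HDM and 13.9% to 15.3% in KO_saline, with no overlap. It was 6.85% to 14.8% in WT_HDM and 10.7% to 19.04% in WT_saline, where the ranges overlap. The part of the club cells in the fall of the airway forms was not tested.

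Cyp4b1, a fatty acid hydroxylase of lung that also activates the toxin ipomeanol, had 125, 142, 149, 106 and 72.9 CPM in KO_HDM, against 486, 599, 584, 516 and 516 CPM in KO_saline. In WT_HDM it had 178, 119, 105, 118 and 254 CPM, against 382, 351, 459, 370.3 and 554 CPM in WT_saline. The ranges did not overlap under either label. edgeR gave Cyp4b1 a log2 fold change of -2.18 ± 0.23 (SE, adjusted p = 4.29e-07) in KO_HDM and -1.45 ± 0.22 (adjusted p = 0.000112) in WT_HDM.

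Cyp2b10, the classical target of the receptor CAR, had 151, 162, 189.7, 129 and 101 CPM in KO_HDM, against 329, 464, 401, 360.1 and 365 CPM in KO_saline, with a wide gap between the groups. In WT_HDM it had 207, 133, 136, 144 and 283 CPM, against 264, 236, 291, 239 and 369 CPM in WT_saline, and WT_HDM 5 lay within the saline range. Cyp2b10 changed by -1.39 ± 0.20 on the log2 scale (SE, adjusted p = 1.85e-05) in KO_HDM and -0.63 ± 0.20 (adjusted p = 0.0239) in WT_HDM. The WT_HDM call was lost without any 1 of WT_HDM 2, WT_HDM 3, WT_HDM 4 or WT_saline 5 (edgeR adjusted p = 0.055 to 0.0927), without the 5 adipocyte-rich libraries (log2 fold change -0.57, adjusted p = 0.0793), and in a fit of the wild-type libraries alone (adjusted p = 0.0674).

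Cyp2s1, a form of airway and skin epithelium, had 80.5, 67.2, 60.4, 46.9 and 57.3 CPM in KO_HDM, against 138, 178, 166, 145 and 159 CPM in KO_saline. WT_HDM libraries had 67.7, 60.4, 80.6, 58.9 and 104 CPM, against 101, 155, 125, 131 and 148 CPM in WT_saline, and only WT_HDM 5 overlapped with the lowest saline library. The log2 fold change of Cyp2s1 was -1.33 ± 0.16 (SE, adjusted p = 1.98e-06) in KO_HDM and -0.83 ± 0.16 (adjusted p = 0.000791) in WT_HDM. Cyp2s1, Cyp2b10 and Cyp2f2 lie in that order among 13 Cyp genes in a row of P450 symbols on chromosome 7, from Cyp2s1 to Cyp2t4, with Cyp2a5 between Cyp2b10 and Cyp2f2. Cyp2a5, a coumarin hydroxylase that can share reads with Cyp2a4, did not pass the test and had single-library peaks, 258 CPM in WT_saline 2 and 107 CPM in WT_saline 4, both adipocyte-rich libraries. Of the other adipocyte-rich libraries, KO_HDM 5 and WT_HDM 4 had 61.9 and 60.9 CPM, but WT_HDM 2 had 9.85 CPM. KO_saline 2 to 5, with Adipoq of at most 27.7 CPM, had 54.6 to 72.2 CPM of Cyp2a5. Without the 5 adipocyte-rich libraries Cyp2a5 fell in KO_HDM (log2 fold change -1.80, adjusted p = 0.0187), against -1.13 with them (adjusted p = 0.26). Its uncalled value in WT_HDM was 0.23 without them (adjusted p = 0.847) and -1.54 with them (adjusted p = 0.169). Cyp2t4, the last in the row, did not pass it either.

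**Figure D1:**
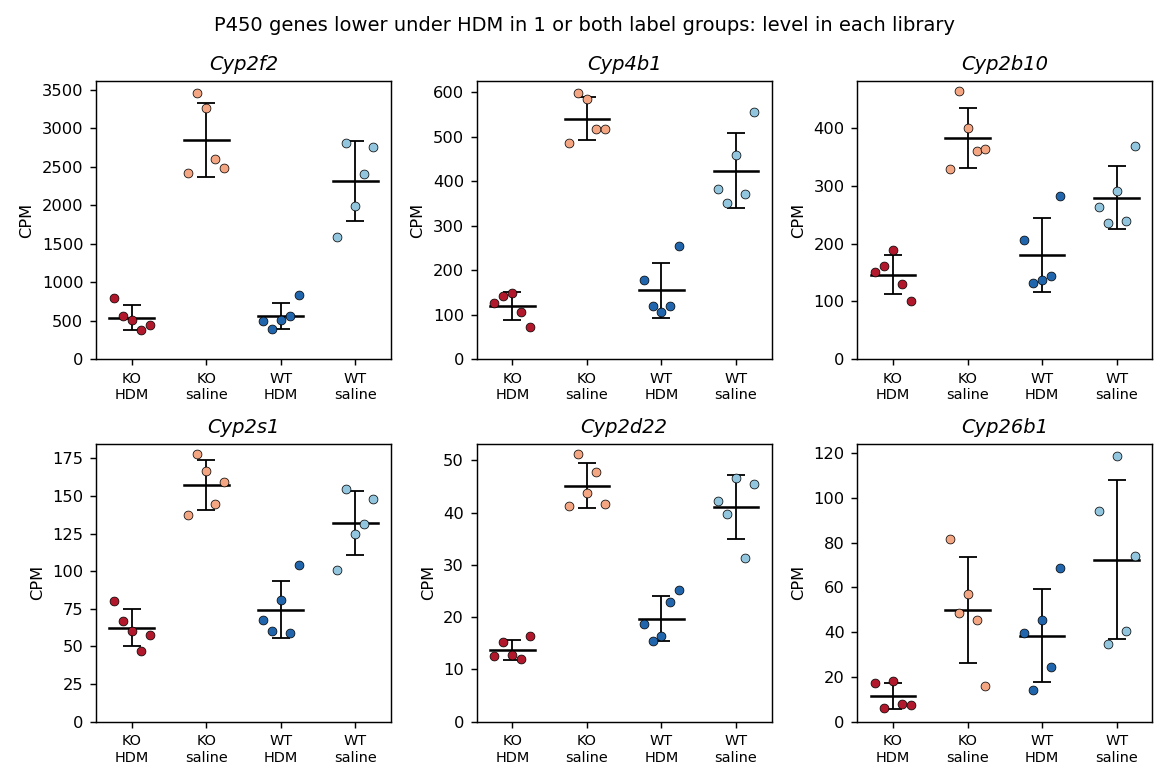
Level of 6 P450 genes in each library, in CPM, for KO_HDM, KO_saline, WT_HDM and WT_saline from left to right. Points are libraries, the long bar is the mean and the whiskers are 1 SD, and the KO_HDM points of Cyp2f2, Cyp4b1, Cyp2b10, Cyp2s1 and Cyp2d22 lie below all KO_saline points.

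**Figure D2:**
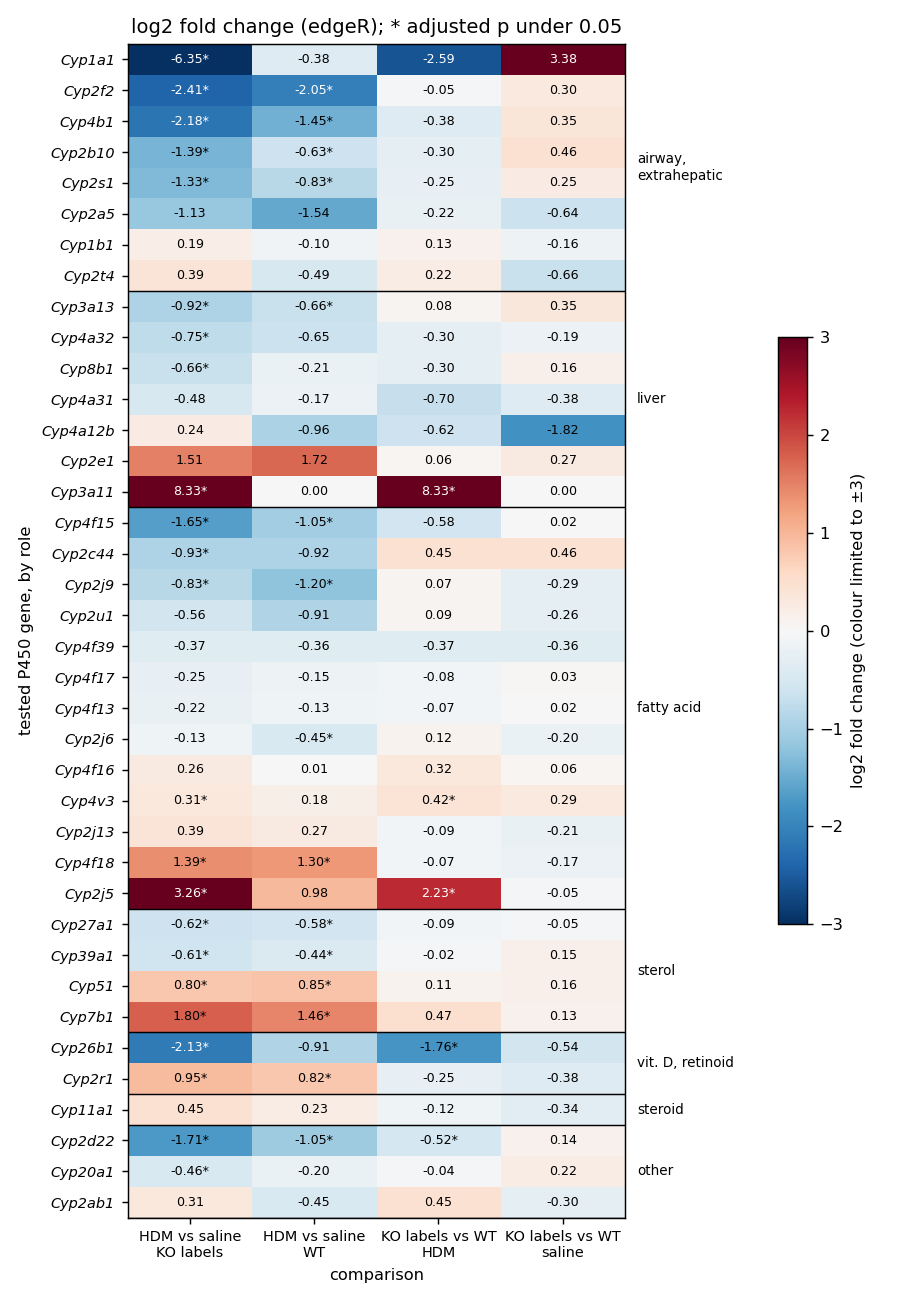
log2 fold change of the 38 tested P450 genes in 4 comparisons, HDM against saline in mice labelled knockout, the same in wild type, and labelled knockout against wild type under HDM and under saline, with genes grouped by role. Stars mark an adjusted p under 0.05, and the colour stops at a change of 3 on the log2 scale; the value of Cyp3a11 rests on groups at 0 counts and depends on the prior count.

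Sterol members moved in both directions. Of the 4 tested sterol members, 2 rose and 2 fell, and this held in both HDM groups, where 51.9% of all tested genes were called in KO_HDM and 30.1% in WT_HDM. Cyp51, the lanosterol demethylase of cholesterol synthesis, had 80.6, 77.5, 69.8, 67.2 and 67.04 CPM in KO_HDM, against 47.3, 28.98, 40.9, 45 and 45.6 CPM in KO_saline. In WT_HDM it had 79.8, 73.3, 75.7, 58.4 and 49.2 CPM, against 37.1, 36.4, 32.2, 44.2 and 36.4 CPM in WT_saline. No HDM library overlapped with a saline library of its label. edgeR gave Cyp51 a log2 fold change of 0.80 ± 0.14 (SE, adjusted p = 7.77e-05) in KO_HDM and 0.85 ± 0.14 (adjusted p = 0.000163) in WT_HDM.

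Cyp7b1, which hydroxylates oxysterols and so removes signalling sterols, had 12.4, 13.3, 15.4, 16.2 and 10.6 CPM in KO_HDM, against 3.88, 3.52, 4.18, 3.87 and 4.06 CPM in KO_saline. In WT_HDM it had 10.3, 11.2, 13.3, 7.71 and 6.63 CPM, against 4.19, 3.89, 2.92, 3.36 and 3.44 CPM in WT_saline. All HDM libraries were higher than all saline libraries. Cyp7b1 changed by 1.80 ± 0.17 on the log2 scale (SE, adjusted p = 1.12e-07) in KO_HDM and 1.46 ± 0.17 (adjusted p = 5.28e-06) in WT_HDM. Macrophage markers moved the same way, with 5 of 5 tested higher in KO_HDM and 4 of 5 in WT_HDM, where 26.2% and 13.6% of all tested genes rose. None of these markers was at 0 in any group. Their summed level was 834.3 to 1211 CPM in KO_HDM, 333 to 420.4 CPM in KO_saline, 501 to 769 CPM in WT_HDM and 332 to 405 CPM in WT_saline, and the part of macrophages in the rise was not tested.

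Cyp27a1, a mitochondrial sterol hydroxylase of the bile acid pathway, fell. It had 13.1, 12.5, 11.4, 12.8 and 14.2 CPM in KO_HDM, against 19.3, 21.6, 19.7, 19 and 18.4 CPM in KO_saline. WT_HDM libraries had 12.2, 14.8, 10.6, 14.7 and 15.6 CPM, against 23.04, 20.4, 21.9, 18.9 and 17.2 CPM in WT_saline. The ranges did not overlap under either label. The log2 fold change of Cyp27a1 was -0.62 ± 0.10 (SE, adjusted p = 6.95e-05) in KO_HDM and -0.58 ± 0.10 (adjusted p = 0.000461) in WT_HDM. Cyp39a1, another oxysterol hydroxylase, averaged 23.6 ± 1.83 CPM (SD, n = 5) in KO_HDM and 36.1 ± 2.31 CPM (SD, n = 5) in KO_saline, and 24.03 ± 4.72 CPM (SD, n = 5) in WT_HDM and 32.6 ± 3.51 CPM (SD, n = 5) in WT_saline. edgeR gave Cyp39a1 a log2 fold change of -0.61 ± 0.11 (SE, adjusted p = 0.000122) in KO_HDM and -0.44 ± 0.11 (adjusted p = 0.00517) in WT_HDM.

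Members that act on arachidonic acid and other fatty acids moved in both directions. Of the 13 tested, 3 rose and 3 fell in KO_HDM, and 1 rose and 3 fell in WT_HDM. These are 46.2% and 30.8% of the 13, near the 51.9% and 30.1% of all tested genes. The 3 that rose in KO_HDM include Cyp2j5, which passed the count filter through KO_HDM alone. Cyp4f18, which in mouse neutrophils inactivates a chemotactic leukotriene, had 20.3, 21.5, 20.8, 31.8 and 19.8 CPM in KO_HDM, against 7.47, 10.2, 9.24, 8.87 and 7.61 CPM in KO_saline. WT_HDM libraries had 27.2, 29.9, 29.1, 18.9 and 15.2 CPM, against 11.04, 6.01, 8.45, 13.8 and 9.57 CPM in WT_saline. The ranges did not overlap under either label. Cyp4f18 changed by 1.39 ± 0.21 on the log2 scale (SE, adjusted p = 2.39e-05) in KO_HDM and 1.30 ± 0.21 (adjusted p = 0.000187) in WT_HDM. Where 26.2% and 13.6% of all tested genes rose, 1 of the 5 neutrophil markers rose in each comparison, Cxcr2 in KO_HDM and Retnlg in WT_HDM. Their summed level overlapped between groups, at 121 to 302 CPM in KO_HDM, 145 to 215 CPM in KO_saline, 61.8 to 155 CPM in WT_HDM and 86.7 to 136 CPM in WT_saline, with none at 0 in any group.

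Cyp4f15, a fatty acid hydroxylase, had 2.13, 1.66, 1.897, 1.32 and 1.73 CPM in KO_HDM, against 6.03, 7.14, 4.93, 5.04 and 4.42 CPM in KO_saline. WT_HDM libraries had 2.101, 1.54, 4.27, 2.33 and 2.92 CPM, against 5.33, 7.41, 3.99, 5.25 and 5.14 CPM in WT_saline, and WT_HDM 3 overlapped with the saline range. The log2 fold change of Cyp4f15 was -1.65 ± 0.23 (SE, adjusted p = 1.06e-05) in KO_HDM and -1.05 ± 0.23 (adjusted p = 0.00204) in WT_HDM. The WT_HDM call was lost without the 5 adipocyte-rich libraries (log2 fold change -0.66, adjusted p = 0.0761). Cyp2j9, of the epoxygenase subfamily, averaged 4.75 ± 0.6799 CPM (SD, n = 5) in KO_HDM and 8.49 ± 1.04 CPM (SD, n = 5) in KO_saline, and 4.51 ± 0.569 CPM (SD, n = 5) in WT_HDM and 10.4 ± 1.39 CPM (SD, n = 5) in WT_saline. edgeR gave Cyp2j9 a log2 fold change of -0.83 ± 0.13 (SE, adjusted p = 2.87e-05) in KO_HDM and -1.20 ± 0.13 (adjusted p = 2.63e-06) in WT_HDM, with no overlap of ranges under either label.

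The other calls in this group were smaller or rested on few libraries. Cyp2j6 fell in WT_HDM (log2 fold change -0.45, adjusted p = 0.00983), a call lost without the adipocyte-rich libraries (adjusted p = 0.0716) and in a fit of the wild-type libraries alone (adjusted p = 0.057), and in KO_HDM it did not pass the test. Cyp2c44, an epoxygenase, fell in KO_HDM with a log2 fold change of -0.93 (adjusted p = 0.0433), at levels of 0.221 to 1.29 CPM in KO_HDM, against 0.939 to 1.65 CPM in KO_saline. That call was lost in 14 of the 20 fits that each left out 1 library (adjusted p up to 0.127); it held without KO_HDM 5, WT_HDM 4 or WT_saline 1, 2, 3 or 4. It was also lost in a fit of the labelled knockout libraries alone (adjusted p = 0.0506) and under other count filters (adjusted p = 0.0534 and 0.0555). Cyp4v3, a fatty acid hydroxylase of wide expression, rose by a log2 fold change of 0.31 in KO_HDM (adjusted p = 0.017) and not without KO_HDM 4 (0.20, adjusted p = 0.105). Cyp2u1 did not pass the test in either comparison with all libraries, at log2 fold changes of -0.56 in KO_HDM (adjusted p = 0.209) and -0.91 in WT_HDM (adjusted p = 0.0707). Without the adipocyte-rich libraries it fell in both, by -0.88 (adjusted p = 0.00143) and -1.37 (adjusted p = 0.00138) on the log2 scale. Cyp4f16 likewise passed the test in KO_HDM without them (0.32, adjusted p = 0.0162) and not with them (0.26, adjusted p = 0.0656).

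Of the 2 tested vitamin D and retinoid members, 1 rose and 1 fell in KO_HDM, and 1 rose in WT_HDM. Over all tested genes 51.9% were called in KO_HDM and 30.1% in WT_HDM. Cyp2r1, which carries out the first activating hydroxylation of vitamin D, had 3.74, 2.53, 2.43, 2.59 and 2.48 CPM in KO_HDM, against 1.29, 1.27, 1.14, 1.83 and 1.59 CPM in KO_saline. WT_HDM libraries had 3.52, 2.495, 4.51, 2.999 and 2.87 CPM, against 3.55, 2.02, 1.49, 1.06 and 1.23 CPM in WT_saline, where WT_saline 1 was within the HDM range. Cyp2r1 changed by 0.95 ± 0.27 on the log2 scale (SE, adjusted p = 0.00695) in KO_HDM and 0.82 ± 0.27 (adjusted p = 0.029) in WT_HDM. The WT_HDM call was lost without any 1 of WT_HDM 3, WT_saline 3, WT_saline 4 or WT_saline 5 (adjusted p = 0.0611 to 0.0676), without the adipocyte-rich libraries (adjusted p = 0.103), and in a fit of the wild-type libraries alone (adjusted p = 0.0921).

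Cyp26b1, which breaks down retinoic acid, had 17.2, 6.14, 18, 7.83 and 7.54 CPM in KO_HDM, against 81.8, 48.5, 56.8, 45.6 and 16.1 CPM in KO_saline. WT_HDM libraries had 39.5, 14.3, 45.3, 24.6 and 68.5 CPM, against 93.9, 34.8, 118, 40.6 and 74.1 CPM in WT_saline. Only KO_saline 5 of the KO_saline libraries lay within the KO_HDM range, and the wild-type groups overlapped. The log2 fold change of Cyp26b1 was -2.13 ± 0.49 (SE, adjusted p = 0.00147) in KO_HDM, and in WT_HDM the change of -0.91 did not pass the test (adjusted p = 0.153). The lung endothelial markers fell too, 4 of 5 in each HDM group with none at 0 in any group, with summed levels of 969 to 1932 CPM in KO_HDM, 3261 to 3428 CPM in KO_saline, 1201 to 2211 CPM in WT_HDM and 2305 to 3515 CPM in WT_saline. The type 1 alveolar markers fell as well, 4 of 4 in KO_HDM and 3 of 4 in WT_HDM. Over all tested genes 25.7% fell in KO_HDM and 16.5% in WT_HDM. In KO_HDM against WT_HDM 0 of the 5 endothelial markers were called, with a median log2 fold change of -0.0158. The part of these cells in the Cyp26b1 result was not tested.

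Among orphan or other members, Cyp2d22, regarded as the mouse counterpart of the human drug enzyme CYP2D6, had 12.5, 15.2, 12.8, 11.9 and 16.4 CPM in KO_HDM, against 41.3, 51.2, 43.7, 47.8 and 41.6 CPM in KO_saline. WT_HDM libraries had 18.7, 15.4, 16.4, 22.9 and 25.2 CPM, against 42.3, 39.7, 46.6, 31.3 and 45.5 CPM in WT_saline. Neither pair of groups overlapped. edgeR gave Cyp2d22 a log2 fold change of -1.71 ± 0.14 (SE, adjusted p = 2.45e-08) in KO_HDM and -1.05 ± 0.14 (adjusted p = 1.81e-05) in WT_HDM. Cyp20a1, an orphan form, fell in KO_HDM by a log2 fold change of -0.46 (adjusted p = 0.00042) and did not pass the test in WT_HDM. Cyp11a1, which starts steroid hormone synthesis, was below 1 CPM in every library and was not called.

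The HDM comparisons of the labels share no library. Of the 38 tested members, 10 fell in both (26.3%, against 14.3% of all tested genes) and 4 rose in both (10.5%, against 12.1%). None changed in opposite directions, 1 (Cyp2j6) was called in wild type alone and 9 in the labelled knockout alone. The 9 include Cyp3a11 and Cyp2j5, which passed the count filter through KO_HDM alone. A call under 1 label and not the other does not show a difference between them, and the test of that difference, the interaction, called none of the 38 (edgeR), where 1.24% of all genes were called. At an unadjusted p under 0.05 it had 7 members, DESeq2 called 2 (Cyp2d22 and Cyp3a11) and limma voom 1 (Cyp3a11). Cyp1a1 was called in the interaction when any 1 of KO_saline 1, KO_saline 3 or KO_saline 4 was left out.

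**Figure D3:**
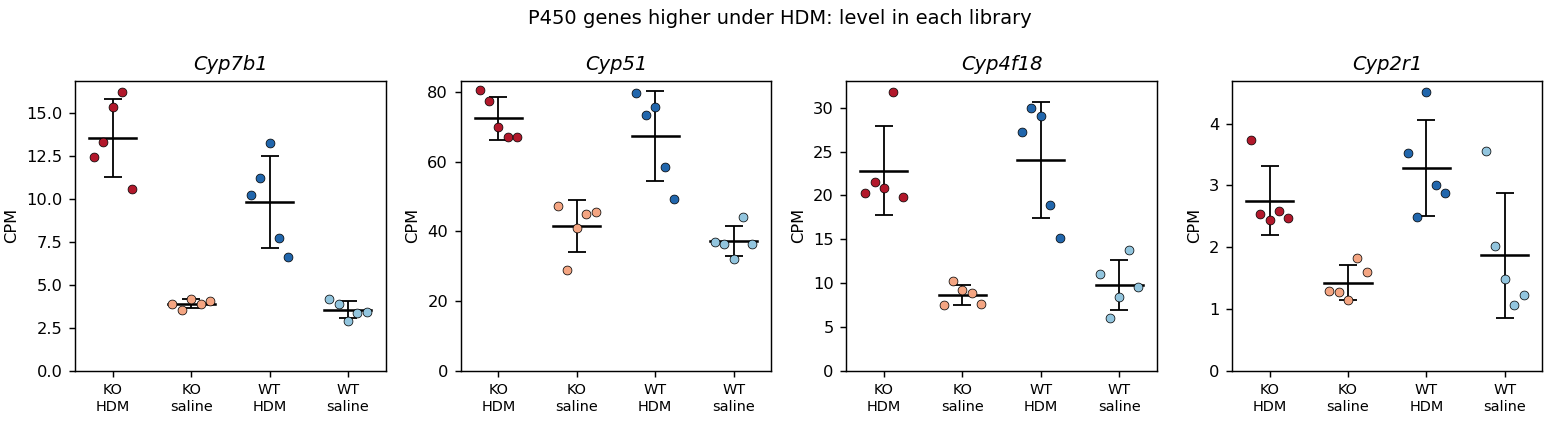
Level of the 4 P450 genes that rose under HDM with both labels, in CPM, for KO_HDM, KO_saline, WT_HDM and WT_saline from left to right. Points are libraries, the long bar is the mean and the whiskers are 1 SD; for Cyp7b1, Cyp51 and Cyp4f18 each HDM group lies above its own saline group, and for Cyp2r1 WT_saline 1 lies within the WT_HDM range.

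A subset of the liver forms was found at low counts in KO_HDM and at few or none elsewhere, while 6 others had over 20 counts in a library of another group. Of the 42 symbols on the liver list, 28 had 10 or more counts, and 8 of these had no count in any of the 15 libraries outside KO_HDM. The 8 are Cyp2c29, Cyp2c37, Cyp2c50, Cyp2c54, Cyp2c67, Cyp2c68, Cyp2c70 and Cyp3a11. They reached the minimum of 10 counts through KO_HDM alone, so their pattern is partly fixed by that minimum and their number supports nothing further. Cyp3a11, the main drug-clearing form of mouse liver, had 15, 51, 50, 47 and 38 counts in KO_HDM 1 to 5 and none in the other 15 libraries. With 3 counts per group set as the floor for a group at 0, its pooled KO_HDM level of 2.083 CPM was 76.3-fold the KO_saline floor. It was 58.5-fold the WT_HDM floor. Cyp2c29, a liver drug and fatty acid form, had 6, 32, 33, 28 and 27 counts, pooled to 47.8-fold the KO_saline floor and 36.6-fold the WT_HDM floor. The floor covers only the counting error of the group at 0. The spread among the KO_HDM libraries, of which KO_HDM 1 was lowest for both genes, does not enter these values. Cyp3a11 was the only one of the 8 with enough counts for the test. It passed the count filter through KO_HDM alone, where it is high, so its calls in KO_HDM against KO_saline (edgeR adjusted p = 5.92e-05) and against WT_HDM (adjusted p = 0.00137) are given as a description.

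In all, 17 of the 28 had at most 3 counts in every library outside KO_HDM, and 19 had a count in each of the 5 KO_HDM libraries. Cyp2d9 had 103 counts in KO_HDM and 2 elsewhere, Cyp1a2, a liver form that clears caffeine, had 65 and 2, and Cyp7a1, the rate-limiting enzyme of bile acid synthesis, had 26 and 9. Cyp2b9, of the same liver list, had 3 counts in KO_HDM and 21 elsewhere, Cyp3a57 had 3 and 16, and Cyp2b13 had 2 and 15. Cyp4a12a, on that list too, had 24 counts in KO_HDM, 23 in KO_saline, 1 in WT_HDM and none in WT_saline. The 6 with over 20 counts in a library outside KO_HDM were Cyp2e1, Cyp3a13, Cyp4a12b, Cyp4a31, Cyp4a32 and Cyp8b1. RSEM splits reads among near-identical members, so the Cyp2c, Cyp2d, Cyp3a and Cyp4a genes are uncertain one by one.

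Other liver genes moved with the 8 forms. The summed level of the 8 was 1.55, 5.798, 6.42, 7.28 and 5.98 CPM in KO_HDM 1 to 5. The 20 hepatocyte markers that are not P450 genes, albumin among them, summed to 46.9, 128, 151, 152 and 122 CPM in the same libraries and to at most 16.7 CPM in any other. KO_HDM 1 was lowest in both sums. The P450 sum was between 3.3% and 4.92% of the marker sum. Of 18 tested hepatocyte markers, 15 rose and none fell in KO_HDM against KO_saline, where 26.2% of all tested genes rose. In KO_HDM against WT_HDM 15 rose, where 4.79% of all tested genes rose. Markers at or near 0 elsewhere, such as Fgb, Ttr and Mup20, passed the count filter through KO_HDM alone. These counts of markers are therefore a description. In WT_HDM against WT_saline none rose and 3 fell, where 13.6% of all tested genes rose and 16.5% fell. None of the 20 markers was at 0 in KO_HDM, 5 were at 0 in KO_saline (Ambp, Fgb, Ttr, Hpd and Mup20), 3 in WT_HDM (Ambp, Fgb and Cps1) and 3 in WT_saline (Fgb, Ttr and Mup20). The part of liver RNA in these counts was not tested.

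**Figure D4:**
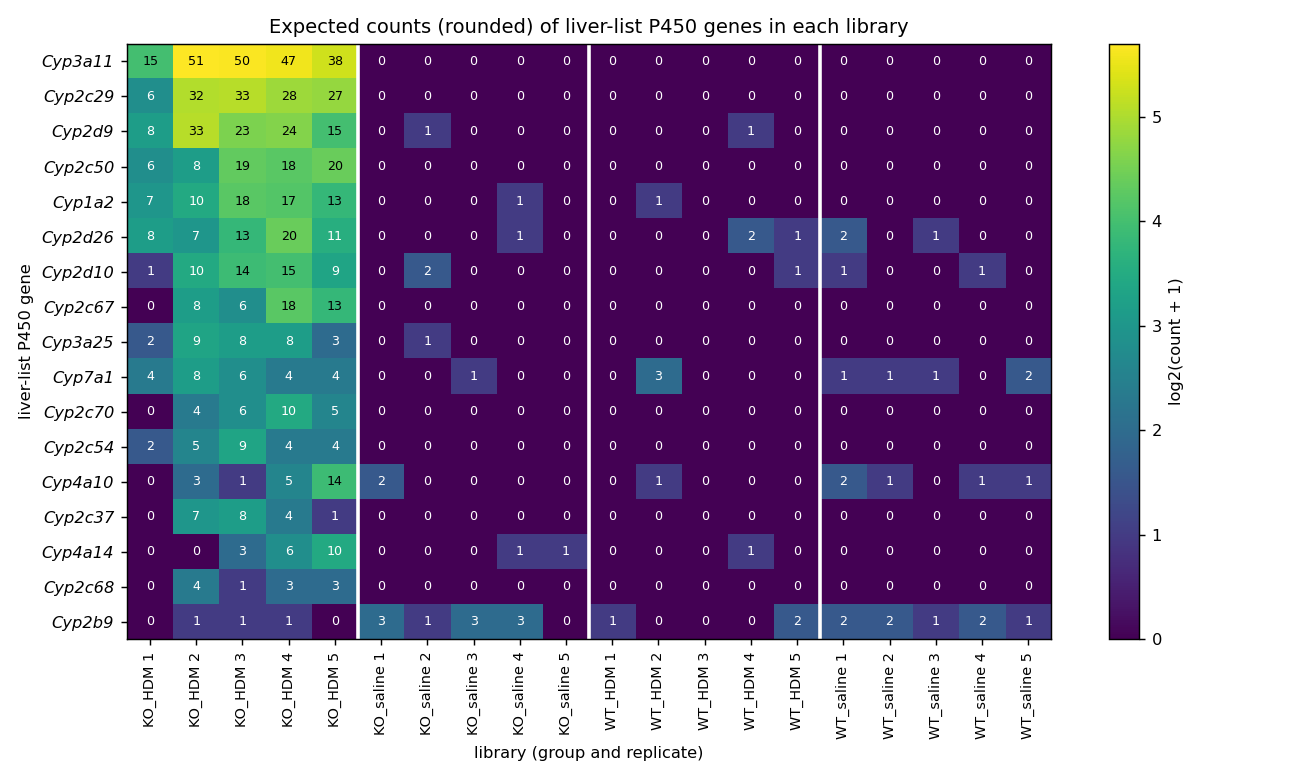
Expected counts, rounded, of the 17 liver-list P450 genes with at most 3 counts in every library outside KO_HDM, for KO_HDM 1 to 5, KO_saline 1 to 5, WT_HDM 1 to 5 and WT_saline 1 to 5 from left to right. Colour is log2 of the count plus 1; counts from 15 to 51 of Cyp3a11 in KO_HDM stand beside 0 in all other libraries, and Cyp2b9 shows no such pattern.

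Some genes on the liver list were present in saline lungs and behaved otherwise. Cyp3a13, a form of gut and lung as well as liver, fell in KO_HDM (log2 fold change -0.92 ± 0.17, adjusted p = 0.00016) and in WT_HDM (-0.66 ± 0.17, adjusted p = 0.0069). Its levels were 4.16, 3.75, 5.06, 3.75 and 2.91 CPM in KO_HDM, against 6.61, 7.61, 7.13, 7.17 and 8.798 CPM in KO_saline, and 3.58, 2.43, 3.96, 3.31 and 5.199 CPM in WT_HDM, against 6.85, 5.65, 5.79, 5.06 and 5.94 CPM in WT_saline. In KO_HDM every library was below every KO_saline library, and in WT_HDM only WT_HDM 5 reached the saline range. Cyp8b1, a hydroxylase of bile acid synthesis, fell in KO_HDM (-0.66, adjusted p = 0.0257), a call lost without KO_HDM 5, KO_saline 2 or KO_saline 3 (adjusted p = 0.0588 to 0.085). Cyp4a32, a fatty acid hydroxylase that can share reads with Cyp4a12b and Cyp4a31, fell in KO_HDM (-0.75, adjusted p = 0.0353), a call lost without KO_HDM 2, KO_HDM 5, KO_saline 1 or KO_saline 4 (adjusted p = 0.0511 to 0.119) and with limma voom (adjusted p = 0.0561).

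Cyp2j5, an arachidonic acid epoxygenase of mouse kidney and liver, also followed the KO_HDM libraries. It had 0.747, 1.07, 1.07, 0.937 and 0.808 CPM in KO_HDM, against 0.0957, 0.188, 0.044, 0.1304 and 0 CPM in KO_saline. WT_HDM libraries had 0.185, 0.192, 0.311, 0.155 and 0.148 CPM and WT_saline libraries 0.254, 0.104, 0.0532, 0.04601 and 0.0471 CPM. Every KO_HDM library was higher than all others. Cyp2j5 changed by 3.26 ± 0.46 on the log2 scale (SE, adjusted p = 1.03e-05) against KO_saline, and 2.23 ± 0.43 (adjusted p = 0.00346) against WT_HDM. Only the KO_HDM libraries were high enough for the count filter, so these calls too are a description. The sum of hepatocyte markers given above was also highest in KO_HDM. Within KO_HDM that sum was 46.9 CPM in KO_HDM 1 and 121.7 to 151.7 CPM in the others, while Cyp2j5 varied less. In wild type the sum averaged 6.365 CPM under HDM and 10.04 CPM under saline, while Cyp2j5 averaged 0.198 and 0.101 CPM. The part of liver RNA in the Cyp2j5 result was not tested.

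In Cyp1a1 and Cyp2e1 single libraries stood far above the rest. Cyp1a1, the main target of the aryl hydrocarbon receptor, which oxidises combustion products, had 0.3202, 0.682, 0.875, 0.331 and 0.431 CPM in KO_HDM, against 3.25, 8.41, 202, 3.26 and 3.28 CPM in KO_saline. WT_HDM libraries had 3.71, 1.09, 3.26, 2.84 and 5.25 CPM, against 2.48, 3.37, 5.48, 4.05 and 5.66 CPM in WT_saline. KO_saline 3 stood apart, and KO_HDM was below every library of the other 3 groups. The log2 fold change of Cyp1a1 was -6.35 ± 1.25 (SE, adjusted p = 0.000421) in KO_HDM against KO_saline, and without KO_saline 3 it was -3.04 (adjusted p = 2.22e-05). Against WT_HDM the change of -2.59 did not pass the test with all libraries (adjusted p = 0.231) and passed it without KO_saline 3 (-2.59, adjusted p = 0.00109). KO_saline 3 belongs to neither group of that comparison, but the estimate of spread is shared by all libraries.

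Tiparp, Ahrr and Cyp1b1, of the same receptor's pathway, lay in KO_saline 3 within the range of the other KO_saline libraries. Tiparp, which represses the receptor, had 54.2 CPM there and 51.3 to 62.4 CPM in the other KO_saline libraries. Ahrr, another repressor, had 0.308 CPM there and 0.235 to 1.04 CPM in the others. Cyp1b1, a P450 also induced through the receptor, had 21.2 CPM there and 13.8 to 35.3 CPM in the others. Cyp1a2, its neighbour in function, had 0 counts in KO_saline 3, but it had only 2 counts in all 15 libraries outside KO_HDM. Ahrr and Cyp1a2 were too low to show much, and the part of the receptor in the Cyp1a1 value was not tested.

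Cyp2e1, which oxidises ethanol and acetaminophen, had 22.8, 13.9, 13.2, 16.1 and 287 CPM in KO_HDM, against 16.1, 25.03, 8.84, 50.6 and 23.5 CPM in KO_saline. WT_HDM libraries had 6.37, 119, 13.8, 188 and 10.6 CPM, against 9.71, 41.1, 13.7, 24.5 and 13.5 CPM in WT_saline. KO_HDM 5, WT_HDM 2 and WT_HDM 4 were far above the rest, and these are 3 of the 5 libraries with Adipoq above 50 CPM. It did not pass the test in KO_HDM against KO_saline (log2 fold change 1.51, adjusted p = 0.227) or in WT_HDM against WT_saline (1.72, adjusted p = 0.223). Without those 5 libraries the changes were -0.61 (adjusted p = 0.2) and -0.29 (adjusted p = 0.724), so the sign of the uncalled value turned. The 6 adipocyte markers had summed levels of 7.44 to 1488 CPM in KO_HDM, 11.1 to 304.8 CPM in KO_saline, 9.58 to 1566 CPM in WT_HDM and 22.9 to 806 CPM in WT_saline, and none of the 6 was called or at 0 in a group. Their part in the Cyp2e1 values was not tested.

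**Figure D5:**
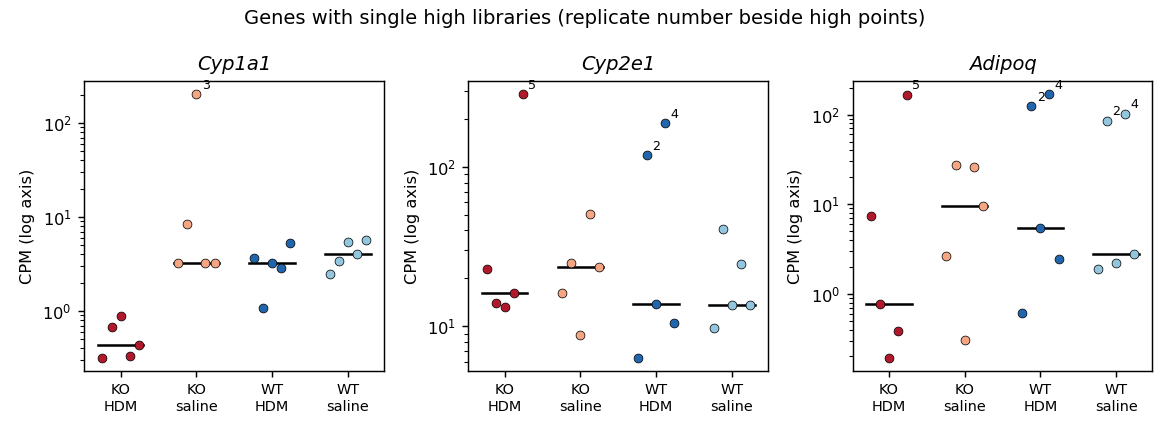
Level in CPM, on a log axis, of Cyp1a1, Cyp2e1 and the adipocyte gene Adipoq in each library, for KO_HDM, KO_saline, WT_HDM and WT_saline from left to right. Points are libraries, bars are medians and numbers give the replicate of the highest points; Cyp1a1 reaches 202 CPM in KO_saline 3, and Cyp2e1 and Adipoq are high together in KO_HDM 5, WT_HDM 2 and WT_HDM 4.

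Between the labels, members were called under HDM and not under saline. Under saline none of the 38 was called in KO_saline against WT_saline, where 0.908% of all genes were called, 0.593% higher and 0.315% lower. At an unadjusted p under 0.05 there were 7 members with edgeR and 6 each with DESeq2 and limma voom, which called none either. Under HDM 5 of 38 were called in KO_HDM against WT_HDM, 3 higher and 2 lower, where 6.67% of all genes were called, 4.79% higher and 1.88% lower. Cyp3a11 and Cyp2j5, described with the liver forms, were higher. Both passed the count filter through KO_HDM alone, where they are high, so the count of 5 rests partly on that filter and is a description.

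The other 3 calls between the HDM groups were less steady. Cyp26b1 was lower in KO_HDM than in WT_HDM (log2 fold change -1.76 ± 0.49, adjusted p = 0.0371), and the call was lost without KO_HDM 2, KO_HDM 4, KO_HDM 5, WT_HDM 1, WT_HDM 3 or WT_HDM 5 (adjusted p = 0.0547 to 0.104). Cyp2d22 was lower (-0.52 ± 0.14, adjusted p = 0.027), lost without KO_HDM 1, KO_HDM 3, KO_HDM 4, WT_HDM 4 or WT_HDM 5 (adjusted p = 0.0618 to 0.0961). Cyp4v3 was higher (0.42 ± 0.10, adjusted p = 0.0203), lost without KO_HDM 3, KO_HDM 4 or WT_HDM 4 (adjusted p = 0.0503 to 0.0746). All 3 calls were lost in a fit of the HDM libraries alone (adjusted p = 0.0511, 0.0746 and 0.0567), Cyp26b1 also with limma voom (adjusted p = 0.0663) and Cyp4v3 without the adipocyte-rich libraries (adjusted p = 0.0634). Levels of Cyp4v3 were 83.8, 99.1, 97.9, 114 and 81.9 CPM in KO_HDM, against 84.8, 64.9, 64.6, 61.3 and 80.9 CPM in WT_HDM, and these overlapped. The count of 5 fell to 3 without KO_HDM 3 and 2 without KO_HDM 4. It came to 8 without KO_HDM 1, KO_saline 3 or WT_HDM 1, and to 9 without WT_HDM 2, WT_HDM 3, WT_saline 1, WT_saline 2 or WT_saline 3. More liver forms had enough counts for the test in these fits, but not every added call was of that kind. Without KO_saline 3, Cyp1a1 was called (edgeR adjusted p = 0.00109), and it was tested with all libraries too. The cause of these shifts was not tested.

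Members without enough counts for the test were low throughout. Of the 36, 21 belong to the liver list and 15 do not. Those 15, which include Cyp2a4, Cyp2g1, Cyp21a1, Cyp26a1 and Cyp46a1, had no group mean above 0.553 CPM and no library above 1.27 CPM. That highest mean was Cyp4b1-ps2 in KO_saline, where Cyp4b1 was also highest.

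Genes that serve or control the P450 enzymes were read from fixed lists. Of 10 tested electron donors and cofactors, 6 fell and none rose in KO_HDM, and 3 fell and 1 rose in WT_HDM. Those calls are 60% and 40% of the list, where 51.9% and 30.1% of all tested genes were called. Por, the reductase that passes electrons to P450s of the endoplasmic reticulum, had 175, 164, 168, 129 and 184 CPM in KO_HDM, against 330.2, 457, 394, 339.6 and 318 CPM in KO_saline. In WT_HDM it had 185, 182, 172, 200.1 and 235 CPM, against 198, 316, 279.7, 283 and 354 CPM in WT_saline, with an overlap at WT_saline 1. Its log2 fold change was -1.16 in KO_HDM (adjusted p = 2.21e-06) and -0.56 in WT_HDM (adjusted p = 0.00577). Ephx1, the microsomal epoxide hydrolase, was the 1 of 4 epoxide hydrolases to fall, with -1.25 in KO_HDM (adjusted p = 2.99e-06) and -0.73 in WT_HDM (adjusted p = 0.00171). Of 13 tested receptors and factors that control P450 genes, 4 fell and 2 rose in KO_HDM, and 3 fell and 1 rose in WT_HDM. The calls are 46.2% and 30.8% of that list, near the shares of all tested genes. Nr1h3, the oxysterol receptor LXR alpha, fell in both (-0.42 and -0.45), Vdr, the vitamin D receptor, rose in both (0.56 and 0.75), and Ahr did not pass the test in either.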

How the data were processed

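RNA from whole lung was sequenced in 20 libraries, with groups taken from the labels. The authors deposited expected counts per gene, estimated with RSEM 1.2.15 after alignment with Bowtie2 2.1.0, per the submitters' processing notes. The only build in those notes is hg38, which is human, while the gene symbols are those of mouse. The build used is therefore not known, and promoter positions come from RefSeq (GRCm38.p6). Libraries keep the strand, per the labels' protocols, and the strand setting of the counting is not given in the sources used here. RSEM splits shared reads among near-identical genes.

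Expected counts were rounded, which moved 17.7% of them, each by at most 0.5. Genes were filtered with filterByExpr by group, scaled with TMM factors, and fitted with edgeR 4.0.16 (R 4.3.3) over all 20 libraries, with 16 residual degrees of freedom. CPM use the same scaling, and SE is the log2 fold change over the square root of its F value. The p-values rest on an estimate of the spread within groups that all 20 libraries share. A library outside a comparison can therefore change its p-values. Library pairs within groups all differed by more than sampling noise. The pipeline was tested on simulated data. Members, role lists, marker lists and motifs were chosen with earlier results of these data known. Any member with 10 or more counts could be named, with full statistics for those called. Alternatives were other scalings and filters, DESeq2 1.42.0, limma 3.58.1 (voom), a fit of the compared libraries only, a minimum of 2-fold, a replicate block, each library left out, and leaving out the libraries with Adipoq above 50 CPM. Floors of 3 counts per group and all counts cover counting error only, and the floors cover only that of the group at 0.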

Additional observations from a re-analysis of the deposited data

Results flagged for a closer look

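In 10 of 152 sets of 5 libraries (6.58%), 1 library lay far from the other 4 of its group. Chance alone gives about 1 in 20 such sets for normally distributed values, which CPM need not be. Sets at 0 in all libraries, as of Cyp3a11 outside KO_HDM, are among the 152 and could not be flagged. Cyp1a1 had 202 CPM in KO_saline 3, where the other KO_saline libraries had 3.25 to 8.41 CPM. Cyp2e1 had 287 CPM in KO_HDM 5, where the others had 13.2 to 22.8 CPM. Cyp4a12b had 6.41 CPM in the same library, KO_HDM 5, where the others had 0.244 to 1.82 CPM. Cyp4f18 had 31.8 CPM in KO_HDM 4, where the others had 19.8 to 21.5 CPM. Cyp2r1 had 3.74 CPM in KO_HDM 1, where the others had 2.43 to 2.59 CPM. Cyp4f16, a fatty acid hydroxylase, had 19.01 CPM in KO_saline 3, where the others had 13.7 to 15.2 CPM. Cyp2u1 had 5.33 CPM in WT_HDM 4, where the others had 1.09 to 1.86 CPM. Cyp2c44 had 1.65 CPM in WT_saline 3, where the others had 0.506 to 0.761 CPM. Cyp2j5 had 0.311 CPM in WT_HDM 3, where the others had 0.149 to 0.192 CPM, and 0.254 CPM in WT_saline 1, where the others had 0.046 to 0.104 CPM.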

How the results depend on the processing

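No called member changed sign under any alternative run. With all 74 members kept by a minimum of 10 summed counts, 39 were called in KO_HDM against KO_saline (24 higher, 15 lower), 14 in KO_HDM against WT_HDM and 1, Cyp4f37, in KO_saline against WT_saline, where 45.5%, 5.85% and 0.729% of all 18783 genes so kept were called. Of the added members, 16 liver forms in the first count and 9 in the second were too low for the test under the usual filter, several of them counted through KO_HDM alone, so these counts support nothing further. At 1 CPM in 5 libraries, 3 were called in KO_HDM against WT_HDM, and 3 also in a fit of those libraries alone. With a minimum of 2-fold, 7 were called in WT_HDM against WT_saline, 12 in KO_HDM against KO_saline and 3 in KO_HDM against WT_HDM. Without the adipocyte-rich libraries, 8 were called in that last comparison. The interaction had 2 calls with DESeq2 and 1 with limma voom. Leaving out 1 library at a time gave 21 to 29 calls in KO_HDM against KO_saline, 13 to 17 in WT_HDM against WT_saline, 2 to 9 in KO_HDM against WT_HDM, 0 in KO_saline against WT_saline and 0 to 1 in the interaction. More or fewer members were tested under the other filters, and for the other shifts the cause was not tested. Replicate numbers were not treated as pairs, since not all same-numbered pairs had a correlation of deviations over 0.1 (17 of 30, range -0.457 to 0.506), and 7 of 20 libraries matched their own number best. With a replicate block the calls were 16 in WT_HDM against WT_saline, 23 in KO_HDM against KO_saline, 5 in KO_HDM against WT_HDM, 0 in KO_saline against WT_saline and 0 in the interaction. Low counts limit the liver forms, of which 21 could not be tested.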
